A study of Mus musculus with 12 samples.

Results

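Of the 12 mouse cortex libraries, 3 exceeded 100 CPM (counts per 1000000 counts) of transthyretin (Ttr), taken over the library total, and they are described here against the other 9. They were WT-4, MUT-1 and KO-3, named by group and replicate, so that each genotype held 1 such library and 3 others. The 3 libraries were chosen by their Ttr level, a measured value. Every difference between them and the other 9 is therefore given as a description, with no test, and the genes counted as called below only sort that description. The WT group was Grn+/+, with the mouse progranulin gene intact. The KO group was Grn-/-, which has no mouse progranulin. The MUT group was Grn-/-;GRNmEx5, a humanized line that lacks mouse Grn too and that the series title describes as carrying a pathogenic human GRN deletion. Each group had 4 libraries of total RNA. WT-4 was labelled male and 375 days old, MUT-1 female and 287 days, and KO-3 female and 282 days. The other 9 were labelled 272 to 375 days old. WT-2, WT-3 and WT-4 were all labelled male and 375 days, older than every KO and MUT library, so age and genotype are partly confounded. The labels name the tissue only as cortex and do not say that libraries came from separate animals, so the p-values below refer to the spread among libraries, which may be technical.

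The choroid plexus is a folded epithelium in the brain ventricles that secretes cerebrospinal fluid. Its cells move ions and water into the ventricle, are joined by tight junctions, carry cilia, and make transthyretin, the carrier of thyroid hormone in that fluid. Beneath the epithelium lies a stroma with fibroblasts, macrophages and fenestrated capillaries. The choroid plexus is not part of the cerebral cortex.

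Ttr stood at 594 CPM of the library total in WT-4, 1318 in MUT-1 and 1882 in KO-3. In the other 9 libraries it ran from 3.61 in WT-3 to 42.2 in WT-1, so the limit of 100 fell in a gap with WT-4 as the library just inside and WT-1 as the one just outside. Ttr was not at 0 in any library. Library totals ran from 16381221 to 20782195 counts. Sex-chromosome transcripts went against the sex label in 12 of 12 libraries, which leaves the same 2 sets of 6 libraries for the sex term of the models. CPM values from here on use TMM (trimmed mean of M-values) library sizes.

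The windows in front of 4 of the genes called higher are shown to place the results on the genome. They were picked from windows that hold a motif described below, and Otx2 has other windows that are not shown. Slc4a5 is a sodium bicarbonate cotransporter, Aqp1 a water channel, Otx2 a homeodomain transcription factor needed for choroid plexus development, and Tekt1 a protein of ciliary microtubules. Each window is the 250 bases before a RefSeq transcript start in GRCm38.p6, 5′ to 3′ on the strand of the gene. Capitals mark TTTATA in Slc4a5, GTTGCC in Aqp1, GGATTA in Otx2, and both GGCAAC and its reverse complement GTTGCC in Tekt1.
Slc4a5, chr6:83237125-83237374, plus strand: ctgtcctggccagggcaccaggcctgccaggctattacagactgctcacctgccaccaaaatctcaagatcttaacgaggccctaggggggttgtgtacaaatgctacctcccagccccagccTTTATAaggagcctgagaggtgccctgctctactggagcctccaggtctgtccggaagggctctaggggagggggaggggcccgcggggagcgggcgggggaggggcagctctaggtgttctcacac
Aqp1, chr6:55336049-55336298, plus strand: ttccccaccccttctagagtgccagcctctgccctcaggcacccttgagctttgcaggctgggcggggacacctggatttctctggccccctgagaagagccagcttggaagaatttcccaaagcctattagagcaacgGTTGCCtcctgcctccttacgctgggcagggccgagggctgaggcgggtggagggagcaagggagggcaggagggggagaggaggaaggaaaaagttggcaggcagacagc
Otx2, chr14:48665110-48665359, minus strand: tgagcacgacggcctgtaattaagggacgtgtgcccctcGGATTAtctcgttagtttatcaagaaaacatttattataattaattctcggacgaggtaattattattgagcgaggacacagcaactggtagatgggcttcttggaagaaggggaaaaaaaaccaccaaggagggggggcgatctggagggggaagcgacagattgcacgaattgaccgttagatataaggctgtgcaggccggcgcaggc
Tekt1, chr11:72361883-72362132, minus strand: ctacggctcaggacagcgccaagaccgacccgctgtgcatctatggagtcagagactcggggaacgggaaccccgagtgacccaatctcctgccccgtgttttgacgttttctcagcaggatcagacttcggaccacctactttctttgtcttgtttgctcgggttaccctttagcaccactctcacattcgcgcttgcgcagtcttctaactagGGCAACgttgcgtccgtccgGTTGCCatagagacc

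These letters belong to 3 motifs searched on both strands: TAATCC, the core bound by OTX proteins, which reads GGATTA on the other strand; GTTGCC, part of the X-box bound by RFX factors of ciliary genes, which reads GGCAAC; and TATAAA, the TATA box, which reads TTTATA. Each motif was counted also where it overlapped another, and a gene was counted if any of its RefSeq windows held the motif. Of the 25 leading genes defined below, 20 had a window. TAATCC was found for 1 of the 20 (5%), Otx2, against 7.21% of 27025 genes with a window and 6.35% of the 11921 tested genes with one. GTTGCC was found for 5 of the 20 (25%), namely Prr32, Kcne2, Steap1, Aqp1 and Otx2, against 11.8% of all genes and 12.6% of tested genes. TATAAA was found for 4 of the 20 (20%), namely Slc4a5, Cldn2, Otx2 and Kcnj13, against 14.3% of all genes and 8.13% of tested genes. Among 7 ciliary genes called higher that had a window, GTTGCC was found for Tekt1 and Lrrc23 (28.6%). The matches describe letters only.

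With genotype and sex in the model, 371 of 15516 tested genes were called higher in the 3 libraries (2.39%) and 166 lower (1.07%), at an edgeR adjusted p under 0.05. The higher genes were led by epithelial transporters, secreted proteins and junction genes of the choroid plexus, and their differences were the larger ones. At least 2-fold differences were fitted for 114 of the 371 and for 0 of the 166, while 175 of the higher and 163 of the lower genes differed by under 1.5-fold. All 3 libraries lay above the range of the other 9 for 236 of the 371, and for 413 of all tested genes (2.66%). All 3 lay below that range for 90 of the 166, and for 262 of all tested genes (1.69%). Of the tested genes, 22 had under 10 counts in each of the other 9 libraries and so passed the filter through the 3 libraries alone, and all 22 were called higher. Without KO-3 the counts were 77 higher and 14 lower, without MUT-1 they were 134 and 22, and without WT-4 they were 298 and 111. In all 3 of these fits 63 of the 371 genes and 5 of the 166 were called. The lower count alone also moved past 1.5 times without WT-3 (255), MUT-2 (95), MUT-4 (108), KO-1 (84), KO-2 (106) or KO-4 (93).

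**Figure D1:**
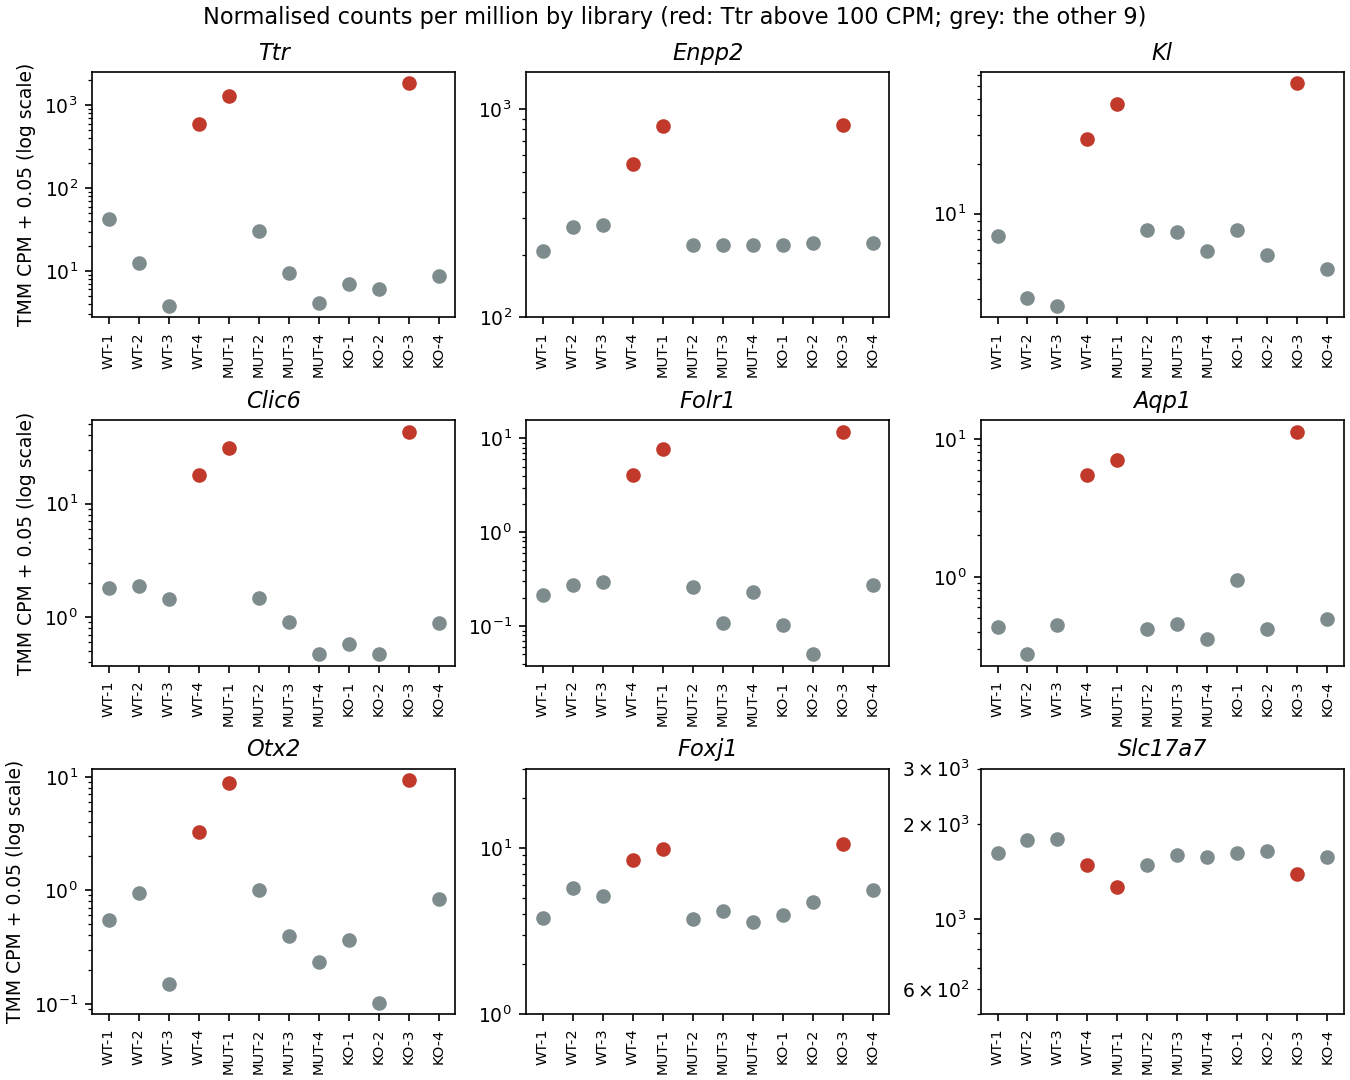
TMM-scaled CPM plus 0.05 (log axis) of 9 genes in each of the 12 libraries, 1 point per library; red points are WT-4, MUT-1 and KO-3, and grey points are the other 9. Enpp2, for example, sits at 542 to 836 in the 3 and at 209 to 278 in the other 9.

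The 25 leading genes were the called genes with the largest fitted log2 difference, a mean of at least 1 CPM in the 3 libraries and no overlap with the other 9. Apart from Ttr there were 24, of which 20 were called in every alternative fit that tested them and all 24 in all but at most 2. They were chosen for large differences in these same libraries, and some were not tested in every fit, so these calls are no separate support. The 5 lists of choroid plexus epithelium, chosen with earlier results of these data known, held 90 genes besides Ttr. Of these, 83 were tested and 7 did not pass the filter on low counts. Of the 83, 54 were called higher and 0 lower, and for 49 all 3 libraries lay above the other 9. The 83 include 11 genes with under 10 counts in each of the other 9, which had to be high in the 3 libraries to be tested, and all 11 were called. A filter on the mean over all libraries left 47 of 75 called. Without KO-3, 34 of the 83 were called, without MUT-1 41, without WT-4 51, and with the striatal level as a further term 36. The median log2 difference of the 83 was 0.85, against -0.00017 over all tested genes. In bulk RNA, more cells of a type and more RNA per cell cannot be told apart.

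Of 16 secreted proteins tested, 12 were called higher and 0 lower, with a median log2 difference of 1.29. Enpp2 (autotaxin, which makes lysophosphatidic acid) measured 542 CPM in WT-4, 829 in MUT-1 and 836 in KO-3, against a lowest of 209, a median of 223 and a highest of 278 in the other 9. Its log2 difference was 1.64 (SE 0.12), and WT-4 was the lowest of the 3. Kl (klotho, a co-receptor for FGF23 that is also shed) measured 28.6, 46.7 and 62.3 CPM in the same order, against 2.67, 5.84 and 7.93. Its log2 difference was 2.89 (SE 0.21), with no overlap. F5 (coagulation factor V) measured 9.78, 17.6 and 17.5 CPM, against 0.262, 0.630 and 1.29. Sostdc1, a secreted antagonist of BMP and Wnt signals, measured 5.01, 12.1 and 13.9 CPM, against 0.148, 0.612 and 1.01. The log2 differences were 4.24 (SE 0.26) for F5 and 3.91 (SE 0.24) for Sostdc1. Igf2, a growth factor of choroid plexus and meninges, had a higher base: 56.4, 117 and 98.5 CPM against 25.6, 33.8 and 53.3. WT-4 lay only just above the highest of the other 9 for Igf2. The 4 genes of the list not called were Cst3, Rbp4, Mdk and Vim. Cst3 (cystatin C) measured 738, 835 and 841 CPM against 680, 823 and 867, and Rbp4 (retinol-binding protein) had a log2 difference of -0.20 (SE 0.10). The 12 called became 8 without MUT-1 and 7 without KO-3 or with the striatal level as a further term. The median was 1.05 without MUT-1, 1.185 without KO-3 and 1.32 with the striatal level.

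Of 18 genes of ion and water transport, 13 were called higher and 0 lower, with a median of 0.80. Slc4a5 measured 5.55 CPM in WT-4, 11.6 in MUT-1 and 15.3 in KO-3, against 0, 0.158 and 0.582 as the lowest, median and highest of the other 9. Its log2 difference was 5.19 (SE 0.30). Clic6, a chloride channel family protein, measured 17.7, 30.7 and 43.2 CPM, against 0.419, 0.860 and 1.84. Both genes kept the order of Ttr, WT-4 below MUT-1 below KO-3. Aqp1 measured 5.43, 7.01 and 11.3 CPM, against 0.223, 0.385 and 0.893. Kcne2, a potassium channel subunit of the ventricular membrane, measured 3.46, 8.17 and 8.70 CPM, against 0, 0.158 and 0.330. The log2 differences were 4.64 (SE 0.27) for Clic6, 4.20 (SE 0.20) for Aqp1 and 5.12 (SE 0.31) for Kcne2. Slc12a2, a sodium-potassium-chloride cotransporter, measured 106, 113 and 115 CPM against 65.6, 84.1 and 90.8, a smaller log2 difference of 0.42 (SE 0.07). The sodium pump subunit Atp1b1 was not called, at 1806, 1792 and 1847 CPM against 1709, 1827 and 1902. Without KO-3, 8 of the 18 were called.

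Of 19 carriers of vitamins, metals and solutes that were tested, 10 were called higher and 0 lower, with a median of 0.54. Folr1 (folate receptor alpha, Entrez 14275, chr7:101858331-101870788 on the minus strand in GRCm38.p6), which brings folate into cerebrospinal fluid, measured 4.00, 7.74 and 11.8 CPM in WT-4, MUT-1 and KO-3. In the other 9 it was 0 at the lowest, 0.182 at the median and 0.247 at the highest. The log2 difference of 5.34 (SE 0.29) was the largest of this list, and all 3 libraries stood far from the rest. Steap1, a metalloreductase family protein, measured 1.37, 2.27 and 3.38 CPM against a highest of 0.223. Slc31a1, the copper importer, was expressed in all libraries and measured 23.1, 30.1 and 32.3 CPM against 17.4, 18.9 and 20.5. Slc13a4, a sulfate transporter, did not keep the order of Ttr: MUT-1 had 31.4 CPM, KO-3 15.3 and WT-4 9.96, and WT-4 lay within the range of the other 9, whose highest was 10.2. The 10 called became 6 without MUT-1 or KO-3. A filter on the mean over all libraries left 7 of 16 called, with a median of 0.35.

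Epithelial structure gave 8 of 17 genes called higher and 0 lower, with a median of 0.74. Under the filter on the mean it gave 5 of 13, with a median of 0.47. Cldn2, the claudin that makes tight junctions permeable to cations, measured 3.28, 5.51 and 10.03 CPM against 0, 0.157 and 0.390. Tmem72, a membrane protein, measured 2.09, 4.59 and 5.98 CPM against a highest of 0.495. Their log2 differences were 4.91 (SE 0.35) and 4.85 (SE 0.42). Of 13 transcription factors, receptors and peptidases, 11 were called higher and 0 lower, with a median of 1.26, and 7 were called without KO-3. Otx2 measured 3.22, 8.85 and 9.36 CPM against 0.0524, 0.344 and 0.952, a log2 difference of 3.66 (SE 0.39). Prlr (prolactin receptor) measured 8.89, 7.78 and 12.0 CPM against 0.692, 0.893 and 1.89. Htr2c, a serotonin receptor that neurons express too, measured 54.5, 64.3 and 55.1 CPM against 18.0, 25.9 and 48.5. For Prlr and Htr2c, WT-4 was not clearly below MUT-1 and KO-3.

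Motile cilia genes, used by ependymal cells and by choroid plexus epithelium, gave 10 of 35 called higher and 0 lower, with a median of 0.65. Foxj1, the transcription factor of motile cilia, measured 8.35, 9.77 and 10.5 CPM against 3.53, 4.13 and 5.68, a log2 difference of 1.12 (SE 0.15). Dnah6, a dynein heavy chain, measured 3.28, 3.63 and 3.66 CPM against 0.734, 0.890 and 1.61. Tekt1 measured 2.27, 2.03 and 2.49 CPM against 0.746, 0.912 and 1.48. For these 3 genes the 3 libraries were closer to each other than for Ttr. The 10 called ciliary genes became 3 without MUT-1, with a median of 0.42, and 2 without KO-3 or with the striatal level as a further term. The median was 0.61 without KO-3 and 0.87 with the striatal level. Under the filter on the mean 8 of 26 were called, with a median of 0.42.

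**Figure D2:**
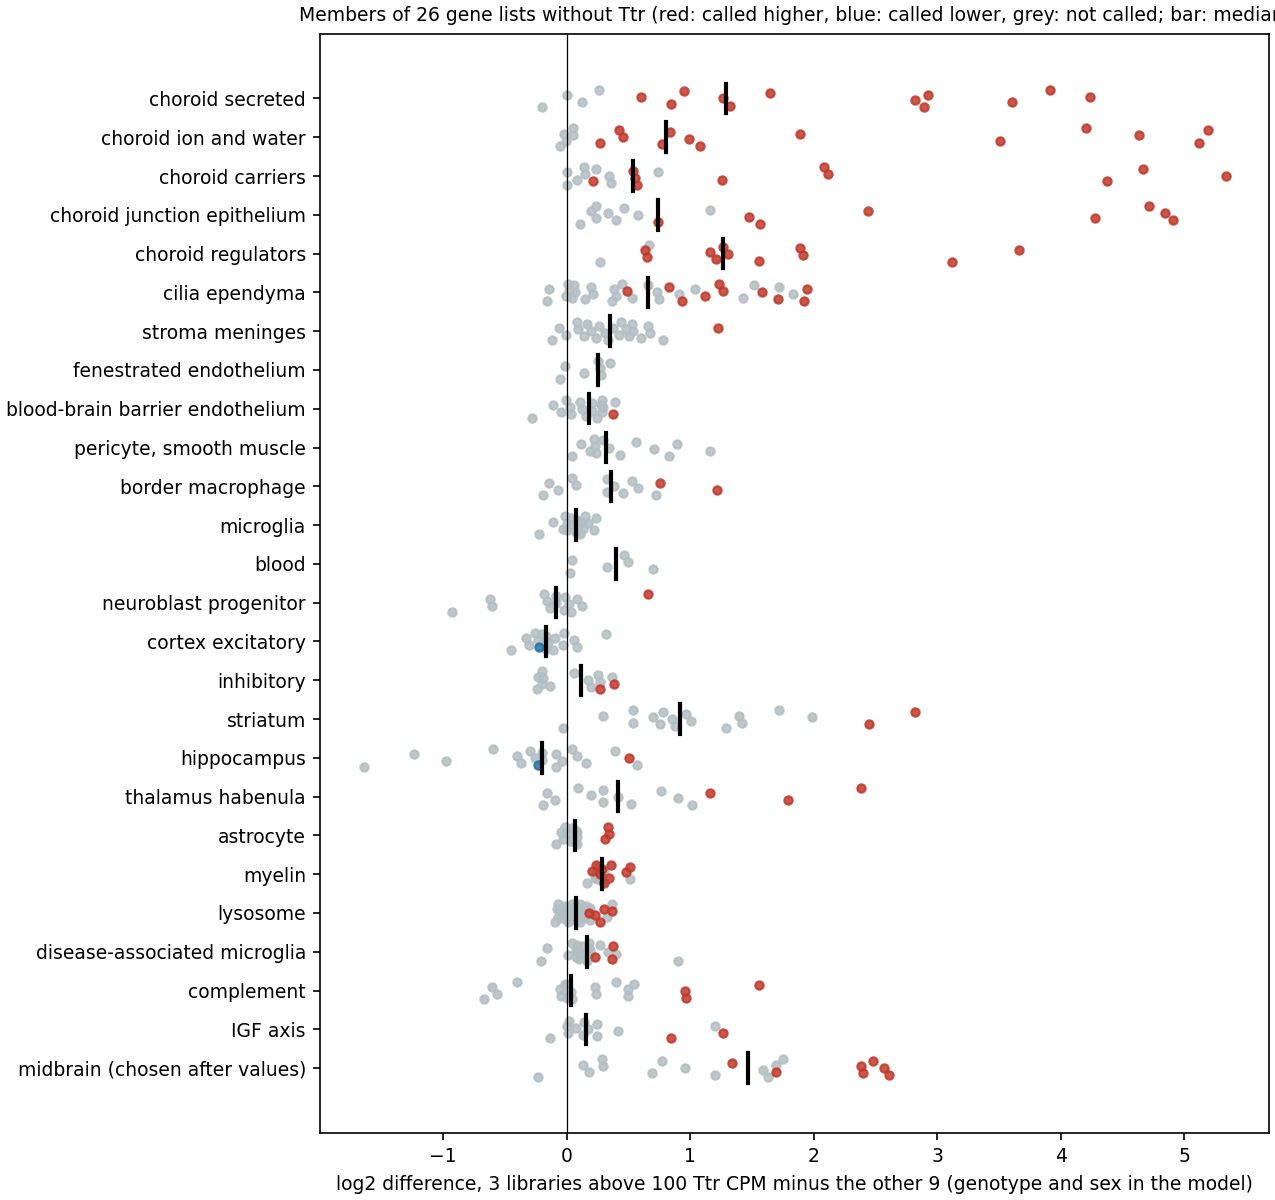
Log2 difference (3 libraries minus the other 9, genotype and sex in the model) of each tested member of 26 gene lists, without Ttr; red points were called higher, blue lower, grey not called, and bars are medians. The 5 choroid plexus lists have medians of 0.54 to 1.29, and the microglia list 0.08.

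Few markers of the other cell types that choroid plexus holds were called, although most of their differences were above 0. Of all tested genes 2.39% were called higher. In lists of 6 to 24 genes, 0 or 1 call is near that share and does not show whether a cell type was present. Of 24 fibroblast genes of stroma and meninges 1 was called higher, Lum, with 1.67 CPM in WT-4, 7.93 in MUT-1 and 3.60 in KO-3 against 1.11, 1.57 and 2.43. The summed level of that list was 600 CPM in WT-4, 1279 in MUT-1 and 764 in KO-3, against 566 to 785 in the other 9, so MUT-1 stood apart. Of the 24, 21 had a difference above 0, with a median of 0.35 that became 0.05 without MUT-1. None of 7 genes of fenestrated endothelium was called, and none of 14 pericyte genes, 18 microglia genes or 6 blood genes. All 14 pericyte genes had a difference above 0, with a median of 0.32. The medians of the fenestrated endothelium, microglia and blood lists were 0.26, 0.08 and 0.40. Of 14 genes of border-associated macrophages 2 were called higher: Dab2, an endocytic adaptor, and H2-Eb1, an MHC class II chain. Leaving out any of the 3 libraries left 1 of them called, and Lum was not called without MUT-1 or KO-3. The summed level of that list was 70.2, 121 and 82.7 CPM, against 69.1 to 86.0, so MUT-1 stood apart here too. The median of those 14 genes was 0.36, and 0.08 without MUT-1. Blood-brain barrier endothelium gave 1 of 18, Itm2a.

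Genes of other brain regions also differed, in both directions and not all in the same library. Of 18 striatal genes 2 were called higher, and the list's median log2 difference was 0.92. Six3, a homeodomain factor of striatal neurons, measured 21.2 CPM in WT-4, 1.55 in MUT-1 and 1.94 in KO-3, against a highest of 6.33 in the other 9. Isl1, a LIM homeodomain factor, measured 4.83, 0.0967 and 0.166 CPM against a highest of 0.791. The summed striatal level was 2509 CPM in WT-4, 427 in MUT-1 and 603 in KO-3, against 443 to 1419, so only WT-4 was above the other 9. Next came WT-3 at 1419 and WT-2 at 852, labelled male and 375 days like WT-4. The striatal level is thus partly confounded with genotype and age. Neither striatal call remained without WT-4 or without KO-3. Thalamic and habenular genes gave 3 of 15 called higher, with a median of 0.42, and 1 without KO-3. Tcf7l2, a Wnt effector of thalamic neurons, measured 9.78, 15.7 and 16.5 CPM against 4.25, 5.71 and 8.16, and Pou4f1, a habenular factor, 0.298, 2.42 and 1.16 CPM against a highest of 0.559. A midbrain list chosen after values were seen gave 7 of 20 called higher, with a median of 1.46. Its Gata3 measured 0.0597, 2.85 and 2.16 CPM against a highest of 0.582, and its summed level was 22.3, 60.7 and 45.7 CPM against 16.3 to 33.6. MUT-1 and KO-3, but not WT-4, stood above the other 9 for that list. Its 7 calls became 1 without MUT-1, 2 without KO-3 and 0 with the striatal level as a further term. A filter on the mean over all libraries left 6 of its genes, with 0 called and a median of 0.29. The summed level of hippocampal genes lay the other way: it was 1047 CPM in WT-4, 825 in MUT-1 and 973 in KO-3, against 1085 to 1383 in the other 9. Nptx1 alone made up 517, 419 and 445 CPM of these 3 sums. The mean of the members' centred log2 CPM was -0.48, -0.41 and 0.32, within the -0.76 to 0.74 of the other 9. By that measure the 3 libraries did not lie outside the other 9. Within genotypes, MUT-1 lay below the 0.17 to 0.74 of the other MUT libraries, and WT-4 and KO-3 lay within the range of theirs. Of 20 hippocampal genes 1 was called higher (Amigo2) and 1 lower (Nptx1), with a median of -0.20 that became 0.04 without MUT-1. The part of these regions in the counts of called genes was not tested beyond a fit with the striatal level as a further term, which gave 81 higher and 35 lower genes.

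**Figure D3:**
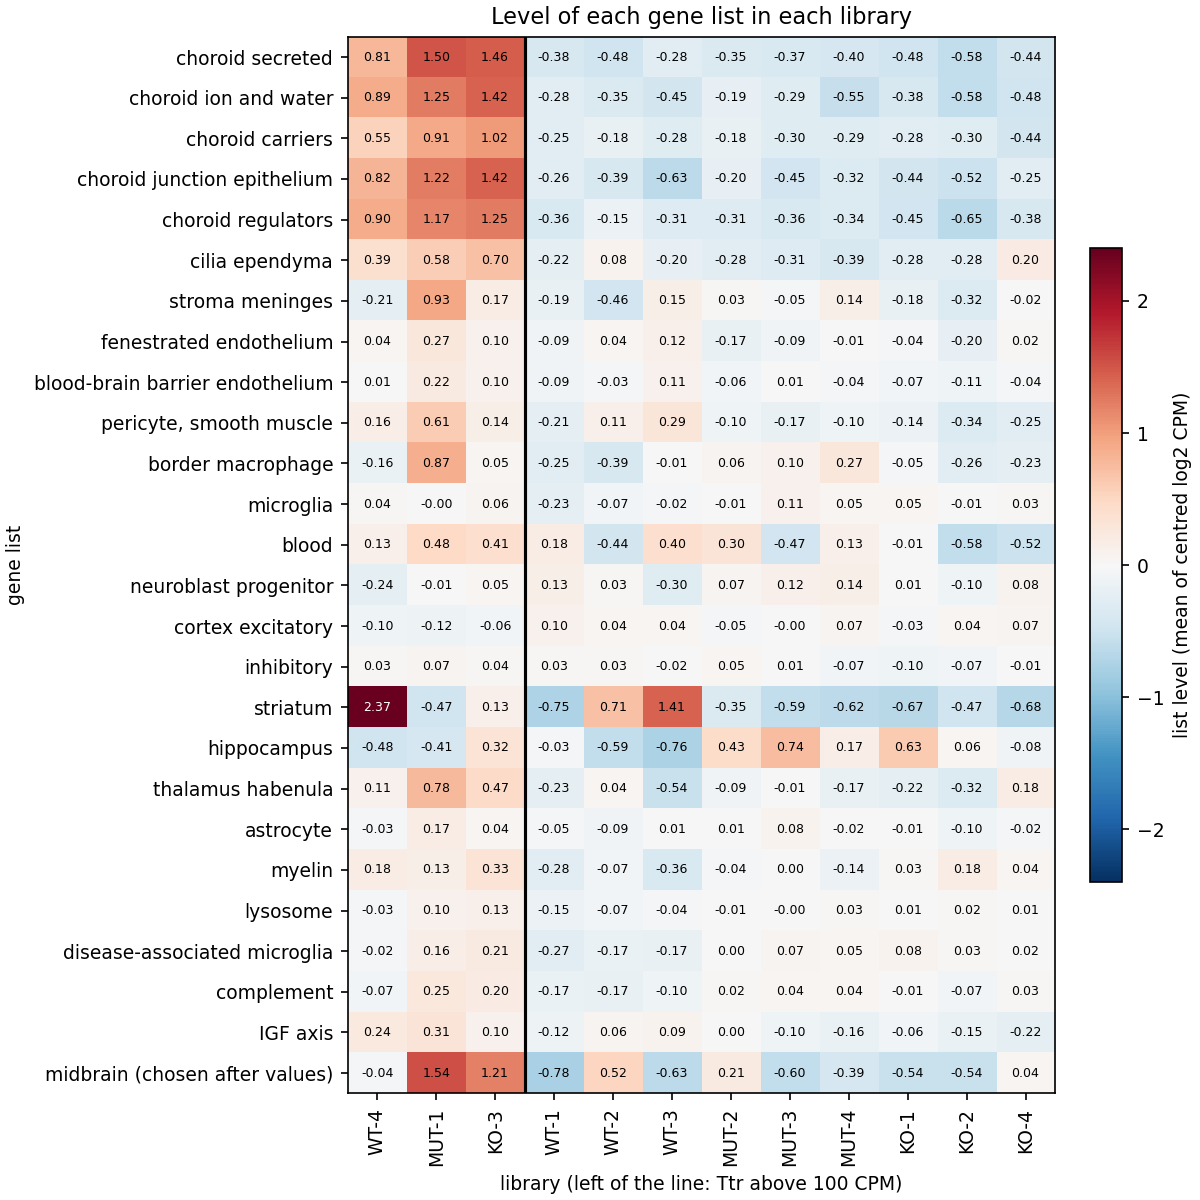
Level of each gene list (mean of its members' centred log2 CPM) in each library, with the 3 libraries above 100 Ttr CPM left of the line. The striatal list reads 2.37 in WT-4 and -0.47 in MUT-1, and the midbrain list -0.04 in WT-4 and 1.54 in MUT-1.

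Myelin genes, of oligodendrocytes, gave 9 of 18 called higher and 0 lower, with a median of 0.28. They became 3 without WT-4, 4 without MUT-1, and 0 without KO-3 or with the striatal level as a further term. The median changed little: it was 0.21 without WT-4, 0.32 without MUT-1, 0.31 without KO-3 and 0.29 with the striatal level. Mog, a surface protein of myelin, measured 48.3, 50.7 and 58.3 CPM against 32.7, 43.4 and 47.6. It was among 5 of the 18 for which all 3 libraries lay above the other 9. The summed level of the list was 5343 CPM in WT-4, 5373 in MUT-1 and 6184 in KO-3, against 3795 to 5715, so only KO-3 was above. Inhibitory neurons gave 2 of 14, Gad1 and Gad2, the enzymes that make GABA. Gad2 measured 243, 194 and 184 CPM against 140, 155 and 178. Both were above the other 9 in all 3 libraries, whereas Cck and Lhx6 of the same list were below in all 3 and not called, and 8 of the 14 had a difference above 0, with a median of 0.12. Inhibitory genes gave 1 call without MUT-1 or KO-3, and 0 without WT-4 or with the striatal level. Astrocytes gave 3 of 16, Aqp4, Slc4a4 and Slc6a11, and 0 without MUT-1 or KO-3. Of 38 lysosomal genes 5 were called higher, namely Cd63, Npc2, Npc1, Ctsz and Lamp2, with a list median of 0.07. No lysosomal gene was called without MUT-1, without KO-3 or with the striatal level as a further term.

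The lower genes differed little. Cbln4, a secreted synapse organizer, measured 14.6, 20.0 and 14.9 CPM against 21.8, 25.2 and 31.6, a log2 difference of -0.66 (SE 0.14). Icam5, an adhesion molecule of forebrain dendrites, measured 289, 197 and 242 CPM against 292, 315 and 339. Slc17a7, the vesicular glutamate transporter of cortical excitatory neurons, measured 1480, 1262 and 1391 CPM against 1486, 1615 and 1794, a log2 difference of -0.23 (SE 0.04). It was the 1 called gene among 18 of that list, whose median was -0.17. WT-4 lay close under the other 9 for Icam5 and Slc17a7. Of the 166 lower genes 2 were members of one of the 25 lists, and of the 371 higher genes 98 were, so 273 higher genes were in no list.

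The excess of a gene over the mean of the other 3 libraries of its genotype was set against that of Ttr to see which genes kept 1 ratio. Of the 236 higher genes with no overlap, 104 had an excess per Ttr within 2-fold over the 3 libraries and 132 did not. Per 1000 CPM of excess Ttr, Folr1 had 6.55 CPM in WT-4, 5.98 in MUT-1 and 6.40 in KO-3. Slc4a5 had 9.26, 8.87 and 8.25, and Clic6 27.8, 23.5 and 23.3. These 3 genes held nearly the same ratio in libraries whose Ttr differed, and other epithelial genes did not: Prlr had 13.7, 4.97 and 6.09. Of the 24 leading genes besides Ttr, 20 lay within 2-fold and 4 did not, namely Slc16a8, Prlr, Tmprss11a and Six3os1. Of the 47 genes of the choroid plexus lists that were called higher with no overlap, 35 lay within 2-fold and 12 did not. Six3 had 31.0 in WT-4 and 0.920 and 0.925 in the others, Gad2 133, 25.2 and 20.8, and Lum 0.663, 4.75 and 0.962. Only positive excesses were summed over the 371 genes, which raises the total. The sum was 0.413% of the TMM-scaled counts in WT-4, 0.518% in MUT-1 and 0.588% in KO-3. Ttr alone made up 0.0578%, 0.127% and 0.183% of the counts.

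**Figure D4:**
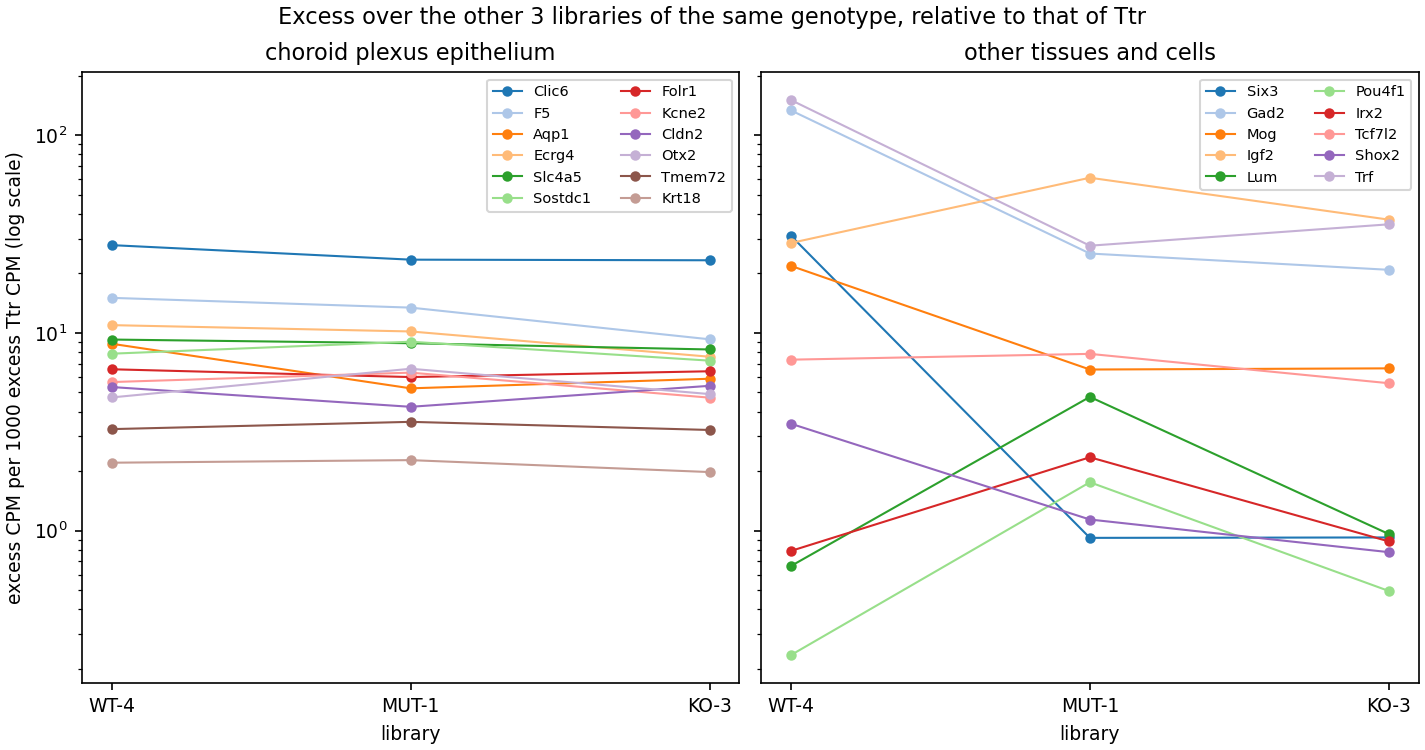
Excess CPM per 1000 excess Ttr CPM (log axis) in WT-4, MUT-1 and KO-3, 1 line per gene. Folr1 is nearly flat at 5.98 to 6.55, and Six3 goes from 31.0 in WT-4 to 0.920 in MUT-1.

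Because each genotype held 1 of the 3 libraries, the genotype comparisons could be fitted with the Ttr class as a term, without it, or in the other 9 libraries alone, and these comparisons were not used to choose the libraries. Grn, the targeted gene, measured 57.0 to 59.9 CPM in WT, 10.8 to 14.0 in KO and 11.5 to 15.3 in MUT. It fell by 2.20 on the log2 scale in KO with the term (SE 0.09; edgeR adjusted p = 1.38e-07), and the class difference of Grn was -0.08 (SE 0.08). With the term 285 genes were called between KO and WT (1.84%), 92 higher and 193 lower in KO. Without it 48 were called (0.309%), all 48 among the 285. In the 9 libraries alone 2 were called (0.0129%), Wdfy1 and Grn. The unadjusted p was under 0.05 for 3183, 2743 and 2331 genes, and the fits had 7, 8 and 5 residual degrees of freedom. The common biological coefficient of variation was 0.0792 with the term, 0.102 without it and 0.0796 in the 9 libraries. Single libraries moved the 285 widely: it was 1992 without WT-1, 32 without WT-2, 1 without WT-4, 101 without MUT-2, 91 without MUT-3, 132 without MUT-4, 21 without KO-1, 4 without KO-2 and 3 without KO-3. With age as a further term 2 genes were called, and with the striatal level 1. WT-2, WT-3 and WT-4 were the highest of all libraries in both, so neither fit fully separates its term from genotype.

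**Figure D5:**
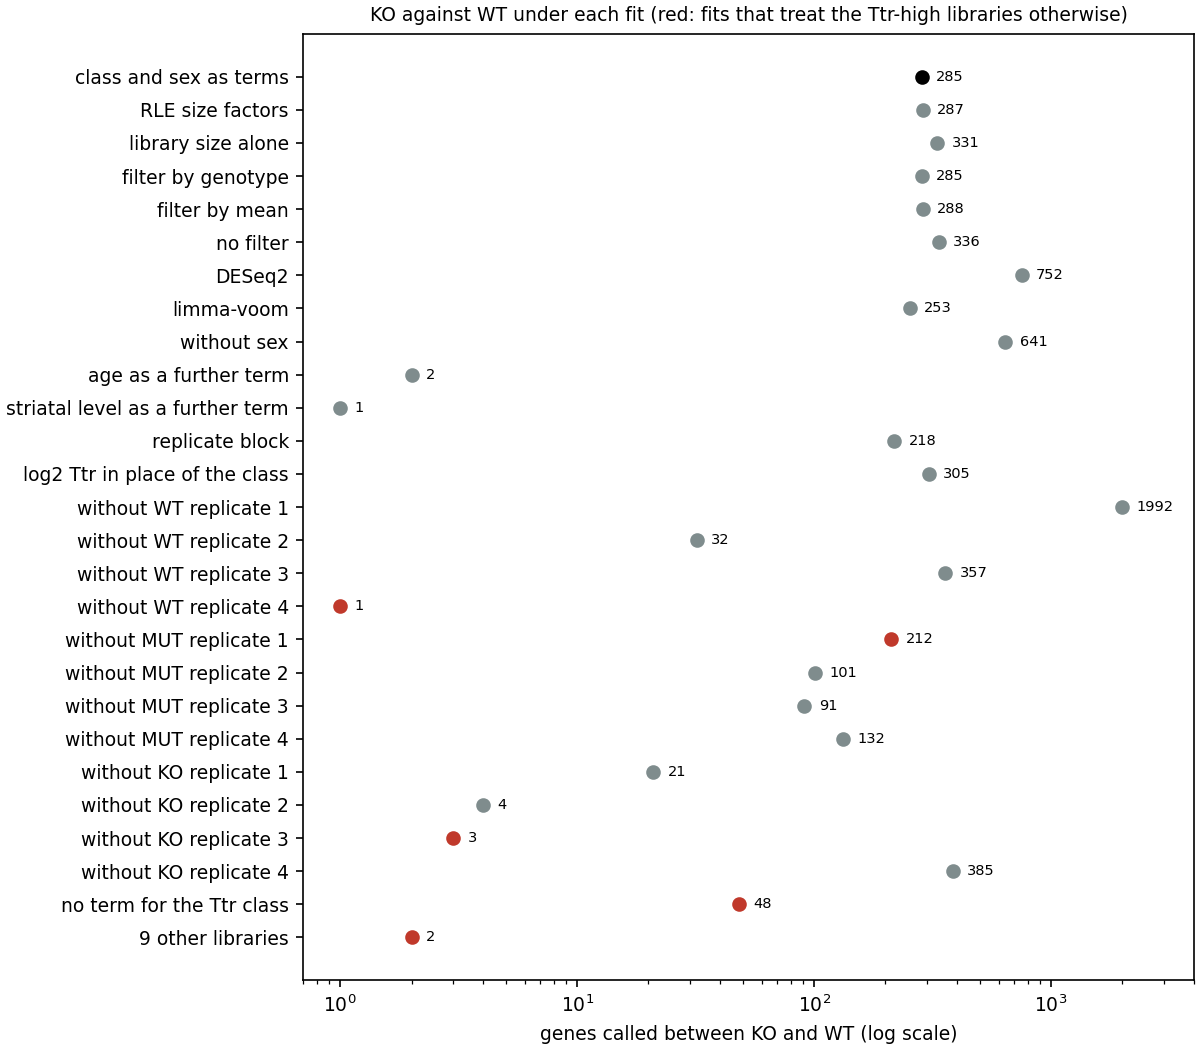
Number of genes called between KO and WT (log axis) under each fit, 1 point per fit; red marks fits that treat the 3 libraries otherwise. The count is 285 with class and sex as terms, 48 with no class term and 2 in the other 9 libraries.

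Several genes lost their call with little change of fold. Lrrc8b, a volume-regulated anion channel subunit, had a log2 difference between KO and WT of -0.54 with the term, -0.55 without it and -0.56 in the 9 libraries. Its edgeR adjusted p was 0.0158, 0.0284 and 0.0875 in that order. Ctss (cathepsin S, which degrades protein in lysosomes) had 0.40, 0.39 and 0.39, with edgeR adjusted p of 0.0158, 0.0316 and 0.0875. C4b (complement C4) had 0.95, 0.94 and 0.95, with edgeR adjusted p of 0.0158, 0.0323 and 0.100. Cd63, a tetraspanin of late endosomes and lysosomes, was called only with the term: its log2 difference was 0.48, 0.46 and 0.45, and its edgeR adjusted p 0.0158, 0.111 and 0.100. Cd63 measured 26.4, 26.1, 26.3 and 30.8 CPM in WT-1 to WT-4 and 33.2, 38.6, 49.3 and 35.8 in KO-1 to KO-4, so WT-4 and KO-3 were the highest of their groups. Its class difference was 0.37 (SE 0.06). Of 38 lysosomal genes 5 rose in KO with the term, Cd63, Cd68, Ctsa, Ctsz and Ctss. Without the term 1 rose, Ctss, and in the 9 libraries 0 passed. The list's median was 0.10, 0.10 and 0.08. Of 23 genes of disease-associated microglia 6, 2 and 0 passed the test, all higher, with medians of 0.20, 0.20 and 0.21. Of 21 complement genes 3, 1 and 0 passed, all higher, with medians of 0.20, 0.17 and 0.16. Over all 15516 tested genes 92, 11 and 1 were higher in KO. For some genes that differed between the 3 libraries and the other 9, the fold between genotypes moved with the fit. Igf2 had a log2 difference between KO and WT of -0.13, -0.14 and -0.41 and Igfbp2 of -0.11, -0.14 and -0.31, none of them called. C3 had 0.83, 0.44 and 1.22 between MUT and WT, also not called.

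Between MUT and WT 2 genes were called with the term (0.0129%), Grn and Hprt, and 3 in the fit without it and in the 9 libraries, where Wdfy1 was added. Between MUT and KO 1 gene was called in all 3 fits (0.00644% with the term), Hprt. Hprt, an enzyme of purine salvage, measured 11.6 to 17.0 CPM in MUT, 123 to 133 in WT and 120 to 136 in KO. Wdfy1, an endosomal adaptor, measured 21.98 to 25.7 CPM in WT, 41.8 to 64.2 in MUT and 42.6 to 61.5 in KO, with no overlap of WT with the others. Its log2 difference between MUT and WT was 0.999 with the term (edgeR adjusted p = 0.0742) and 1.14 in the 9 libraries (edgeR adjusted p = 0.00388). The MUT against WT count was 1365 without WT-1, and the MUT against KO count 7 without WT-1, 18 without WT-3 and 2 without KO-2. KO and MUT are compared with the same WT libraries.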

How the data were processed

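The authors deposited 1 table of whole-number counts per gene for the 12 libraries. Per the labels' protocols, total RNA was extracted with a PureLink kit and 200 ng of it made into libraries with the NEBNext Ultra II Directional kit. Per the submitters' processing notes, the build was mm10 and R 4.1.2 and DESeq2 1.34.0 were used; aligner, counter and strand setting: not given in the sources used here. Coordinates and windows come from RefSeq GRCm38.p6.

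Genes were kept with edgeR's filterByExpr (minimum count 10, by Ttr class of at least 3 libraries), scaled by TMM, and fitted with edgeR 4.0.16 quasi-likelihood in R 4.3.3 (genotype, labelled sex and Ttr class; Benjamini-Hochberg adjustment, 0.05). limma 3.58.1 and DESeq2 1.42.0 gave alternatives, as did other scalings and filters, further terms, a replicate block and leaving out each library. The SE printed with a log2 difference is that difference divided by the square root of the quasi-likelihood F statistic. It was thus derived from the fit's test statistic and not estimated directly. The code was tested on simulated data. Libraries differed beyond sampling noise (over 66 pairs of libraries, chi-square divided by its degrees of freedom was at least 3.53).

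The members and gene lists were chosen with earlier results of these data known, and the midbrain list after its values were seen. Named by rule were Ttr and Grn, the 25 largest and 10 smallest class differences among called genes with no overlap and a mean of at least 1 CPM, up to 4 called members of each list by size, and up to 8 genes per genotype comparison whose call differed between the 3 fits. Predicted gene models were not named. Other genes were chosen after their values were seen. They include list members not called and also called genes outside the rule, such as Enpp2, Kl, Htr2c, Foxj1 and Tekt1.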

Additional observations from a re-analysis of the deposited data

Results flagged for a closer look

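Gaps were examined in each group of 4 libraries, for Ttr, Grn and the level of each of 26 gene lists. A library was set apart where its distance to the nearest other, divided by the range of the group, exceeded Dixon's critical value for 4 values. Chance sets apart about 1 in 20 groups, and 21 of 84 were set apart. The 21 include the 3 gaps of Ttr, which the choice of libraries fixed, and gaps of choroid plexus lists, which that choice favoured. The 21 therefore cannot be set against the rate of chance. The gaps of Ttr were 0.934 in WT, 0.979 in MUT and 0.999 in KO.

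The choroid plexus lists set the same 3 libraries apart at the top of their groups. These lists hold 11 genes that had to be high in the 3 libraries to be tested, so their gaps are no separate support. Secreted proteins gave 0.840 for WT-4, 0.974 for MUT-1 and 0.929 for KO-3. Ion and water transport gave 0.873 for WT-4 and 0.899 for KO-3. Carriers gave 0.873 for WT-4, 0.901 for MUT-1 and 0.888 for KO-3. Junction and epithelial genes gave 0.853 for MUT-1 and 0.860 for KO-3, and regulators 0.965 and 0.857.

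MUT-1 was also set apart at the top of its group for cilia genes (0.882), pericyte genes (0.905), thalamic and habenular genes (0.834) and complement genes (0.914). KO-3 was set apart at the top of its group for lysosomal genes (0.898). WT-3 was set apart at the bottom of its group for inhibitory neuron genes (0.919).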

How the results depend on the processing

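The counts for the 3 libraries against the other 9 moved by over 1.5 times in these fits: with age as a further term, 173 higher and 75 lower; with the striatal level, 81 and 35; with library size alone, 85 lower; with DESeq2, 326 lower; with log2 Ttr in place of the class, 86 lower. Leaving out 1 library gave 77 to 531 higher and 14 to 255 lower. Between KO and WT the count was 752 with DESeq2, 641 without sex, 2 with age, 1 with the striatal level, 48 with no Ttr class and 2 in the other 9 libraries, and 1 to 1992 with 1 library left out. Between MUT and WT it was 6 with no filter, 150 with DESeq2, 133 without sex and 2 to 1365 with 1 library left out. Between MUT and KO it was 21 with DESeq2 and 1 to 18 with 1 library left out. Each named gene was then counted once per alternative fit that tested it, so these totals are not numbers of genes. For the class differences, 1555 such cases kept direction and call, 280 lost the call and 1 changed sign. The last was Grn, at 0.01107 without MUT-1, in a range of -0.157 to 0.01107 with 1 library left out. For the genotype differences, 327 cases kept both, 53 lost the call, 7 gained it and 1 changed sign: Grn between MUT and KO, at -0.01128 without KO-2, in a range of -0.01128 to 0.134. The causes were not tested.

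With the replicate number as a block, 245 genes were higher and 84 lower in the 3 libraries, 218 were called between KO and WT, 2 between MUT and WT and 1 between MUT and KO. Deviations of same-numbered libraries correlated at -0.40 to 0.29 (mean -0.076), and 0 of 12 libraries correlated best with their own number. Those of WT-4, MUT-1 and KO-3, which are not all of 1 number, correlated at 0.30 to 0.59. The deviations thus also hold the differences of these 3 libraries, and the check cannot tell whether same-numbered libraries were handled together. Depth limits genes near 1 count.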
